A study of Mus musculus with 12 samples.

Results

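The genes annotated as small nuclear RNA (snRNA) or miscellaneous RNA (misc_RNA) were examined in 12 RNA-Seq libraries of U2OS, a human osteosarcoma cell line. The file listed 58735 genes, of which 4130 carried one of these annotations, 1909 as snRNA and 2221 as misc_RNA. The 200 of them with the highest mean FPKM (fragments per kilobase of gene, scaled to library size) over the 12 libraries were kept, and they are called the members. They comprised 99 snRNA and 101 misc_RNA genes. Because the members were chosen by their mean level, their levels are given as a description. That mean includes the groups compared below, and the members were chosen with earlier results of these data known.

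Each of 4 groups held 3 libraries. The blank group held U2OS cells with no agent named. The siSRSF1-2 and siSRSF1-3 groups received different siRNAs against SRSF1, a splicing factor of the SR protein family. The OE-LINC01134 group overexpressed the long non-coding RNA LINC01134, and no group treated with a control siRNA or an empty vector was among these libraries. The labels gave neither dose nor time. The paper's methods state an siRNA concentration and a time of harvest, for transfections that they place in HOS cells. By the labels all groups came from the same line, and no label says whether replicates were separate cultures. The p-values therefore measure the spread between libraries, which may be technical. The labels named mouse as the organism, but every gene carried a human Ensembl identifier, so the libraries were treated as human. Gene coordinates are those of the deposited table, whose scaffold names are those of GRCh38.

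The U1, U2, U4, U5 and U6 snRNAs form the core of the spliceosome, which removes most introns, while U4atac and U6atac serve the minor spliceosome and U7 trims the ends of replication-dependent histone messages. 7SL is the RNA of the signal recognition particle, which brings ribosomes making secreted proteins to the endoplasmic reticulum. 7SK holds the elongation factor P-TEFb inactive, and Y RNAs bind the Ro60 protein. These RNAs are copied from a few active genes, mostly carry no poly(A) tail, and have left many pseudogene copies in the human genome, many of them inside introns.

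The targeted gene was checked first. SRSF1 ranged from 19.8 to 35.9 FPKM in the blank libraries, from 7.09 to 7.46 with siSRSF1-2, from 3.33 to 7.90 with siSRSF1-3 and from 29.6 to 31.8 with OE-LINC01134. LINC01134 had a mean of 0.602 ± 0.164 FPKM in the blank group and 1016 ± 228 FPKM in the OE-LINC01134 group (SD, n = 3). Of markers for mesenchymal and bone-forming cells, VIM, COL1A1 and RUNX2 were present, while COL1A2 stayed at or under 0.0129 FPKM in the blank libraries. The leukocyte markers PTPRC and CD3E and the liver marker ALB were at or near 0, and the epithelial marker EPCAM had a mean of 1.28 FPKM in the blank group. Each library held 26237763 to 32954539 reads on genes. 2 of the siSRSF1-3 libraries, replicates 1 and 2, stood apart from the rest, with a read on 27922 and 27813 genes, while the other 10 libraries had a read on 30157 to 32629 genes. In them the library size used in the deposited FPKM was also 0.712 and 0.888 of the reads on genes, against 0.990 to 1.09 elsewhere. The medians over the members are given with and without both of these libraries, and the counts past the threshold with single libraries left out. The other siSRSF1-3 values rest on all 3. Blank replicate 1 and OE-LINC01134 replicate 2 also stood apart from the other libraries of their groups. Over all genes, differences between replicates were 68.6 and 71.3 times the counting variance in pairs with blank replicate 1 and 2.81 times between blank replicates 2 and 3. They were 67.1 and 69.3 times in pairs with OE-LINC01134 replicate 2 and 2.14 times between replicates 1 and 3. VIM, encoding vimentin, was at 181 to 244 FPKM in blank and 171 to 183 FPKM in siSRSF1-3 replicates 1 and 2, but at 79.4 FPKM in replicate 3. It was at 248 FPKM in OE-LINC01134 replicate 2 and at 68.7 and 69.4 FPKM in replicates 1 and 3. In the siSRSF1-2 libraries VIM was at 77.3 to 79.1 FPKM. The siSRSF1-2 and blank groups thus lay wholly apart in VIM, while siSRSF1-3 and OE-LINC01134 were each split. The cause of this split was not tested. Every comparison with blank includes blank replicate 1.

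The members were a small and uneven part of each library. They took 0.0318% to 0.141% of the reads on genes, and a single gene, RN7SL2, took 83.2% to 91.5% of those reads. The median number of reads per library was under 10 for 153 of the 200 members, which are called members on few reads, and only 47 reached 10. Over all members the median of this number was 5.5 reads, with a range of 1 to 19261. One read on a gene of 100 bases was worth 0.282 to 0.510 FPKM, and the members were short, with lengths of 55 to 334 bases and a median of 107. In 74 members every library held a read, and 126 members were listed at 0 reads in at least 1 library. The 200th place fell among genes with hardly any reads. RNU6-316P, ENSG00000202100 and RNU6-1160P were just inside, at mean levels of 0.937, 0.909 and 0.907 FPKM. ENSG00000207146, RNU6-1223P and RN7SKP80 were just outside, at 0.895, 0.890 and 0.890 FPKM.

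By their descriptions 122 members were pseudogenes, 72 had no description and only 6 were not listed as pseudogenes. The U6 family was the largest named group with 63 members, followed by 7SL with 20, U7 with 11, U1 with 8, and Y RNA and 7SK with 7 each. U2 had 5 members, U4, U5 and U4atac had 2 each, and U6atac had 1. The 6 members not listed as pseudogenes were RN7SL2, RN7SL3, RNU6-8, RNU5A-1, RNVU1-4 and ENSG00000206832, a U6 variant that holds part of an SNRPE pseudogene. Of all genes with these biotypes 47 were not listed as pseudogenes, and 19 of the 47 were listed at 0 reads in all 12 libraries. Those 19 included RN7SL1, the 7SK gene, RNU1-2, RNU1-3, RNU2-1, RNU6-1, RNU7-1, the U11 and U12 genes, and the genes of the Y1, Y3 and Y4 RNAs. RNU1-1 was listed with 3 reads over all 12 libraries and RNU4-1 with 6. These genes are used by every cell, so a value of 0 is stated here only as listed, and no level is drawn from it. The study's supplementary methods describe capture of RNA by poly-T beads, and the labels name an mRNA library kit. Since most of these RNAs carry no poly(A) tail, the FPKM and zeros given here are those of the sequenced libraries and not the amounts of these RNAs in the cells. Copies of these RNAs are nearly identical in sequence, so reads may have been divided among copies or dropped, which the table does not show.

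Most members lay within other genes. Inside the coordinates of a longer gene were 172 members (86%), against 2422 of the 3930 snRNA and misc_RNA genes below the 200th place (61.6%). The longer gene was protein-coding for 150 of them. It lay on the same strand for 109 members and on the opposite strand for 63. No source states that reads were assigned by strand, so reads of a member and of the gene that holds it could not be told apart. KLHL22, a substrate adaptor of a ubiquitin ligase, held 3 named members (ENSG00000201916, RN7SL812P and RNY1P9), and in all 3 genes held 2 or more members, 8 members in total.

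Both leading members encode 7SL RNA. RN7SL2 (chromosome 14, 49862550 to 49862849, minus strand) was listed at 2606, 2353 and 1951 FPKM in the blank libraries. Its level was 2015, 1735 and 1821 FPKM with siSRSF1-2, 1966, 999.9 and 1837 FPKM with siSRSF1-3, and 4035, 3333 and 4036 FPKM with OE-LINC01134. All 3 OE-LINC01134 libraries thus lay above all other libraries, and siSRSF1-3 replicate 2 was the lowest. The log2 fold change, on the scale of log2(FPKM + 0.1), was 0.73 ± 0.16 (SE, n = 3 per group) for OE-LINC01134 against blank, and limma's adjusted p of 0.0694 missed the threshold of 0.05. It was -0.30 ± 0.12 for siSRSF1-2 and -0.58 ± 0.46 for siSRSF1-3 against blank (limma adjusted p = 0.121 and 0.416), with FPKM overlapping in both. As a share of reads on genes, RN7SL2 took 0.0420%, 0.0266% and 0.0585% with siSRSF1-3, all below the 0.0628% to 0.0774% of blank. This share was not tested. Without siSRSF1-3 replicates 1 and 2, the RN7SL2 difference between siSRSF1-3 and blank was -0.32 on the log2 scale. In bulk libraries a smaller share of cells with the RNA and less of the RNA per cell cannot be told apart.

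RN7SL3 (chromosome 14, 49853616 to 49853914, minus strand) was listed at 142.6, 149 and 128 FPKM in the blank libraries and at 91.4, 85.5 and 83.6 FPKM with siSRSF1-2. The groups did not overlap, and the log2 fold change of RN7SL3 was -0.68 ± 0.08 (SE, n = 3 per group; limma adjusted p = 0.00326). The difference passed the p threshold but not the minimum of 1 on the log2 scale, so RN7SL3 was not among the members past the threshold. Its level with siSRSF1-3 was 139, 61.8 and 115 FPKM, and with OE-LINC01134 it was 160, 130.5 and 151 FPKM, both overlapping blank. In reads, not scaled to library size, RN7SL3 had 812, 470 and 1074 with siSRSF1-3 and 1181, 1267 and 1247 in blank. In FPKM, RN7SL2 was thus highest with OE-LINC01134, and RN7SL3 lowest with siSRSF1-2 apart from 1 siSRSF1-3 library.

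**Figure D1:**
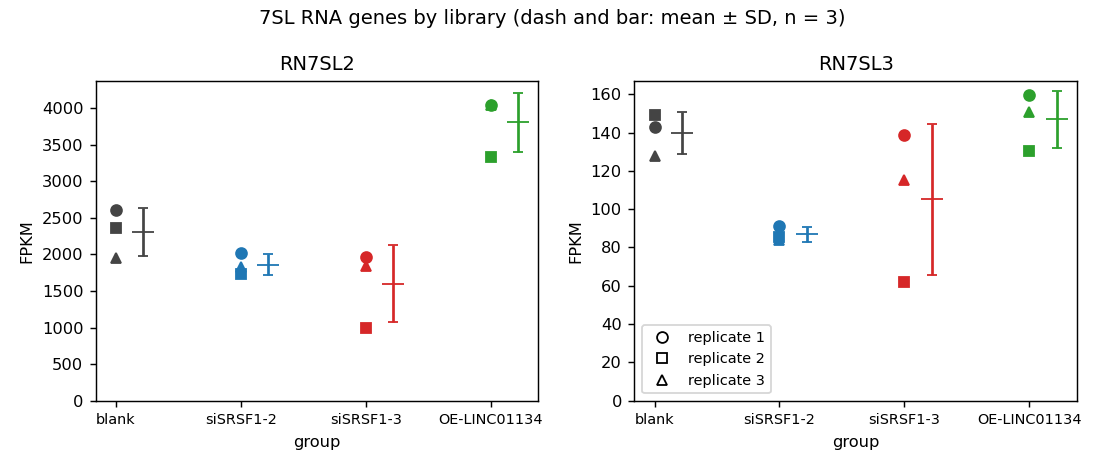
FPKM of RN7SL2 (left) and RN7SL3 (right) in each library, with a dash and bar for the group mean ± SD (n = 3). The OE-LINC01134 libraries are the highest for RN7SL2, at 3333 to 4036 FPKM, and the siSRSF1-2 libraries lie between 83.6 and 91.4 FPKM for RN7SL3, below all blank libraries.

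Below these 2 genes the levels dropped to 21.7 FPKM and less. ENSG00000207425, an undescribed misc_RNA inside a PKD1 pseudogene on the opposite strand, was the next in level. It had 17.5 to 25.2 FPKM over all 12 libraries, with 48 to 76 reads, and overlapped blank in every other group. RNU6-850P, a U6 pseudogene inside the mismatch repair gene MSH5, had 8.77, 16.4 and 11.6 FPKM in the blank libraries and 6.44, 2.29 and 18.4 FPKM with siSRSF1-3. RNU6-173P, a U6 pseudogene outside other genes, was listed at 2.08, 11.5 and 16.5 FPKM in blank and 44.1, 10.97 and 8.02 FPKM with siSRSF1-3. Both members spread widely within a group, and both overlapped blank in every other group. RNY4P10, a Y4 pseudogene inside the retinoid receptor gene RXRB, had 7.52, 2.57 and 5.41 FPKM in blank, 15.9, 11.9 and 7.68 FPKM with siSRSF1-3 and 12.6, 8.39 and 9.47 FPKM with OE-LINC01134. Both of those groups lay above blank, but neither difference passed (limma adjusted p = 0.129 and 0.147).

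RNU1-106P, a U1 pseudogene, lies on the same strand inside PVT1, a long non-coding RNA gene. The member was listed at 5.95, 10.3 and 6.71 FPKM in blank and at 53.5, 17.3 and 10.6 FPKM with siSRSF1-3. All 3 siSRSF1-3 libraries were above blank, the lowest of them narrowly. The log2 fold change of RNU1-106P was 1.51 ± 0.57 with an adjusted p of 0.147 (limma), so the difference did not pass the threshold. PVT1 itself had a mean of 11.2 ± 1.30 FPKM in blank and 26.6 ± 13.7 FPKM with siSRSF1-3 (SD, n = 3), and its own log2 fold change was 1.13 ± 0.35 (limma adjusted p = 0.109). The member and the gene that holds it were thus both highest in siSRSF1-3 replicate 1, and the part of PVT1 in the member's value was not tested.

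ENSG00000200090, inside FNBP4 on the same strand, was listed at 10.6, 11.4 and 11.1 FPKM in blank and at 14.8, 22.2 and 15.1 FPKM with siSRSF1-2. Its log2 fold change was 0.63 ± 0.16 (limma adjusted p = 0.0373), under the minimum fold. With siSRSF1-3 it was at 0, 3.18 and 17.2 FPKM, replicates 1 and 2 again apart from replicate 3. FNBP4 itself differed by 0.41 ± 0.06 on the log2 scale with siSRSF1-2 (limma adjusted p = 0.00688), also under the minimum fold, and the part of FNBP4 in the member's value was not tested.

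**Figure D2:**
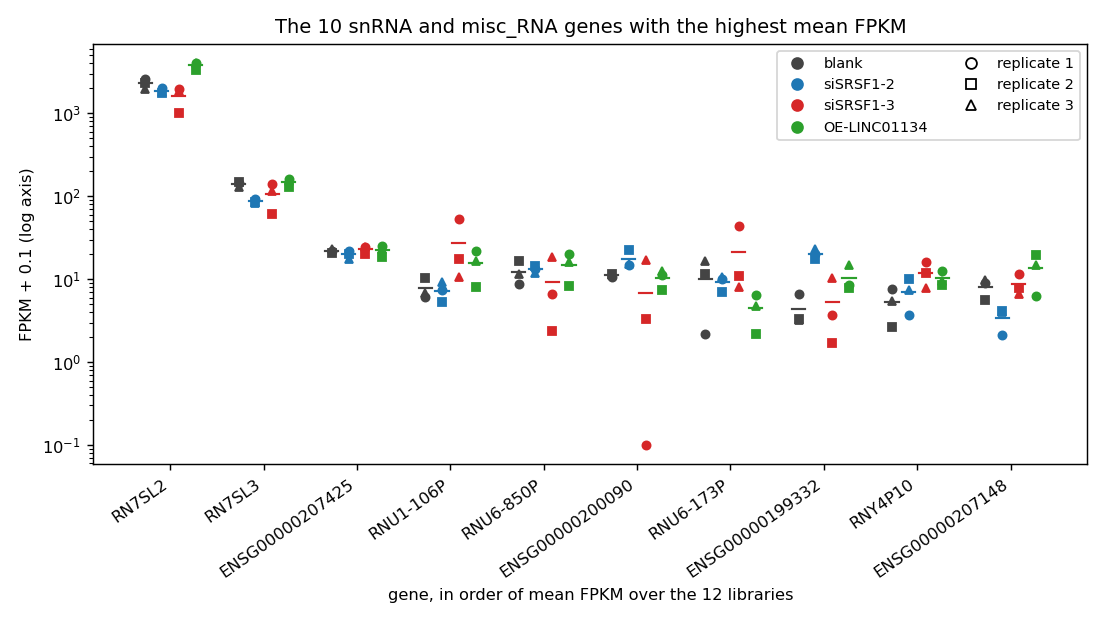
FPKM + 0.1 on a log axis for the 10 members with the highest mean level, in order from left to right, with a point per library and a dash at the group mean. RN7SL2 and RN7SL3 stand far above the other 8 members, and the single point at the bottom is ENSG00000200090 in siSRSF1-3 replicate 1, listed at 0.

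The first comparison asked what SRSF1 knockdown by siSRSF1-2 changed. Past the threshold (limma adjusted p under 0.05 over 17538 genes and a log2 fold change over 1 in either direction) were 20 members, 15 higher and 5 lower with siSRSF1-2, which is 10% of the members, while 4.95% of all genes tested passed. Higher calls were 7.5% of members against 2.22% of all genes, and lower calls 2.5% against 2.73%. Only 3 of the 20 were not on few reads. Choosing members by their mean favours genes that are high in 1 group: without their highest group, 50 of the 200 members would fall below the 200th place and 5 below the filter on low values. Of the 25 members called in any comparison these were 8 and 2, so the counts of calls describe the members and support nothing about them. The median log2 fold change was 0.39 over the members and 0.02 over all genes tested. Groups that did not overlap were found for 47 members (23.5%), against 49.5% of all genes tested. Of these 47, 34 were higher (17%, against 25.3%) and 13 lower (6.5%, against 24.2%). The count past the threshold fell to 4 with no filter on low values (2%, against 2.01% of all genes) and to 2 in a fit over all groups (1%, against 1.79%). It was 5, 7 and 5 without siSRSF1-2 replicate 1, 2 and 3 (2.5%, 3.5% and 2.5%, against 3.34%, 3.22% and 3.04%). It rose to 41 (20.5%, against 6.77% of all genes) without blank replicate 1. The higher share of calls among members than among all genes thus did not hold in every setting.

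ENSG00000199332, an undescribed misc_RNA gene of 99 bases on chromosome 6 (31402152 to 31402250, minus strand), had the largest log2 fold change of the 3 called members not on few reads. It lies inside MICA, a stress-induced ligand of natural killer cells, on the opposite strand. It was listed at 6.57, 3.20 and 3.09 FPKM in blank (18, 9 and 10 reads) and at 20.05, 17.4 and 23.1 FPKM with siSRSF1-2 (57, 51 and 81 reads). Every siSRSF1-2 library thus lay well above the highest blank library. The log2 fold change of ENSG00000199332 was 2.29 ± 0.30 (SE, n = 3 per group; limma adjusted p = 0.00468), and it passed the threshold under all 16 other settings, at 2.06 to 2.64. MICA itself had means of 30.8 ± 2.39 FPKM in blank and 25.5 ± 1.43 FPKM with siSRSF1-2 (SD, n = 3). Its difference was -0.27 on the log2 scale, in the other direction, with an adjusted p of 0.0530 (limma). With siSRSF1-3, ENSG00000199332 was at 3.61, 1.59 and 10.4 FPKM, which overlapped blank (log2 fold change -0.03 ± 0.65). With OE-LINC01134 it was at 8.37, 7.76 and 14.8 FPKM, all above blank, at an adjusted p of 0.101 (limma).

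ENSG00000201916, a misc_RNA inside KLHL22 on the opposite strand (chromosome 22, 20481158 to 20481268), was listed at 1.95, 3.49 and 1.93 FPKM in blank and at 5.96, 6.10 and 4.57 FPKM with siSRSF1-2. All siSRSF1-2 libraries were above blank, by 1.19 ± 0.25 on the log2 scale (limma adjusted p = 0.0197). It rested on 6, 11 and 7 reads in blank, and lost its call under 7 of 16 other settings. RN7SL812P and RNY1P9, which share KLHL22, did not pass, at log2 fold changes of 0.36 and 1.88. KLHL22 itself differed by 0.40 ± 0.13 (limma adjusted p = 0.0644). ENSG00000207148, a misc_RNA outside other genes (chromosome 4, 121329069 to 121329170), was listed at 8.85, 5.52 and 9.59 FPKM in blank and at 2.05, 3.98 and 3.87 FPKM with siSRSF1-2. It was lower in all siSRSF1-2 libraries, by -1.27 ± 0.32 on the log2 scale (limma adjusted p = 0.0330), and lost its call under 8 of 16 other settings.

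**Figure D3:**
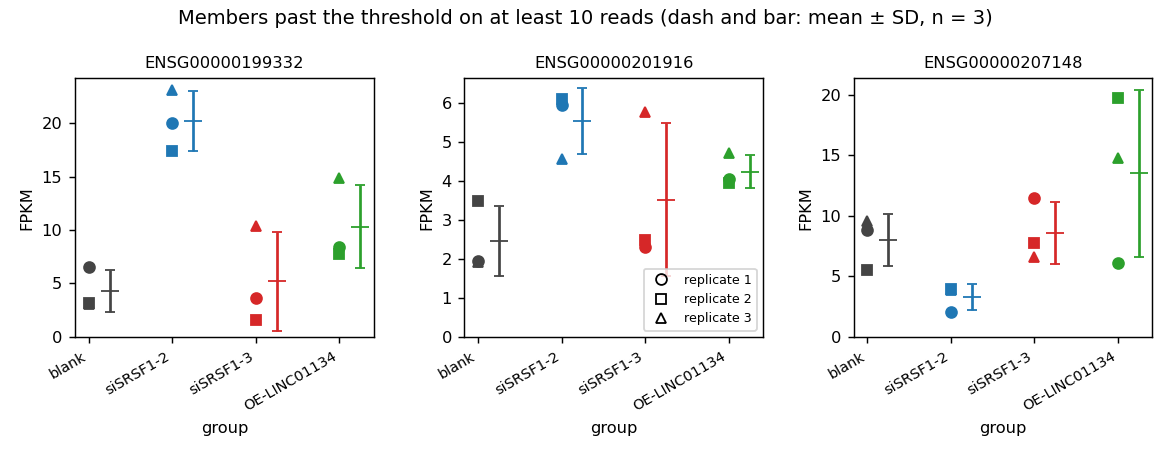
FPKM of the 3 members past the threshold in siSRSF1-2 against blank that were not on few reads, by library, with a dash and bar for the group mean ± SD (n = 3). ENSG00000199332 lies at 17.4 to 23.1 FPKM in siSRSF1-2, while the siSRSF1-3 libraries of that gene overlap blank.

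The other 17 members past the threshold rested on few reads. They spread over families, with 2 7SL copies, 2 U6 copies higher and 1 lower, 1 copy each of U2, U4atac and U7, and the rest without a description. The following were chosen after their values were seen. ENSG00000252412, inside the sulfurtransferase gene TST, had 12, 7 and 7 reads in blank and 1 read in each siSRSF1-2 library. From these 26 and 3 reads it was 9.15-fold lower, with a 95% exact interval of 2.80 to 47.2 for counting error only, and its call (limma adjusted p = 0.00236) was lost under 1 of 15 other settings. RNU2-28P, a U2 pseudogene, had 9, 3 and 6 reads in blank and 15, 30 and 21 with siSRSF1-2, and RNU4ATAC12P, a U4atac pseudogene, had 4, 4 and 1 against 8, 13 and 12. All 3 thus passed on 30 reads per library or fewer. RNU2-28P had a mean of 0.889 FPKM over the groups other than siSRSF1-2, below the 200th place. It was thus kept only through the group where it is high.

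By family, summed levels were higher with siSRSF1-2 than with blank in several groups of copies, without overlap. The 63 U6 members summed to 144 to 148 FPKM in blank and 163 to 180 with siSRSF1-2. The 11 U7 members summed to 21.1 to 28.1 and 31.8 to 34.6 FPKM, and the 8 U1 members to 16.2 to 23.2 and 28.7 to 31.1 FPKM. The 5 U2 members summed to 4.06 to 6.66 and 10.02 to 12.02 FPKM, and the 72 undescribed members to 171 to 181 and 233 to 238 FPKM. In OE-LINC01134 replicates 1, 2 and 3 the U6 members summed to 202, 140 and 192 FPKM and the U7 members to 34.3, 25.3 and 33.9 FPKM. The U1 members summed to 43.9, 19.3 and 35.2 FPKM there and the U2 members to 6.83, 5.07 and 8.36 FPKM. The undescribed members summed to 210, 192 and 243 FPKM. Sums above those of blank were thus not particular to siSRSF1-2. These sums were not tested. They include members kept only through siSRSF1-2, so higher sums in that group are in part built in. RNU2-28P, RNU2-7P and RNU2-38P of U2, and RNU1-72P and RNU1-91P of U1, fall below the 200th place without that group. Without the members on few reads the U6, U7, U1 and U2 sums overlapped, with U6 means of 66.7 ± 4.07 FPKM in blank and 72.1 ± 4.40 FPKM with siSRSF1-2 (SD, n = 3). The undescribed members did not overlap there either, at 88.9 ± 4.41 and 124 ± 8.16 FPKM, and ENSG00000199332 is one of them. The 7SK copies, at 8.79 to 12.1 and 9.96 to 12.3 FPKM, and the Y RNA copies, at 9.45 to 20.3 and 15.1 to 22.7 FPKM, overlapped. For the siSRSF1-3 group the U6 sum ran from 102 to 183 FPKM and the U7 sum from 8.62 to 28.9 FPKM, so the U6 range overlapped all other groups, while the U7 range overlapped blank and OE-LINC01134 and lay below siSRSF1-2.

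The second comparison asked the same of siSRSF1-3. Only 2 members, both lower and both on few reads, passed the threshold (1%, against 1.26% of all genes tested, and 0.929% for lower calls), and 28 lower (14%) and 16 higher (8%) members had an unadjusted p under 0.05 at the same fold, against 7.24% and 7.57% of all genes. The median log2 fold change was -0.85 over the members and -0.01 over all genes tested. Groups that did not overlap were found for 42 members (21%), against 37.2% of all genes. RNU6-856P, a U6 pseudogene inside SMIM4, had 7, 3 and 4 reads in blank and 0 in all 3 siSRSF1-3 libraries. With a floor of 3 reads over the group it was at least 4.004-fold lower (limma adjusted p = 0.0426). RNU6-856P had a mean of 0.794 FPKM over the groups other than blank, below the 200th place, so it was kept only through blank. ENSG00000201988, inside FLOT1, had 13, 11 and 13 reads in blank and 1, 1 and 4 with siSRSF1-3, and its log2 fold change was -2.49 ± 0.40 (limma adjusted p = 0.0456). Both are named after their values were seen, and both lost their call when any 1 library other than siSRSF1-3 replicate 3 was left out. Without siSRSF1-3 replicates 1 and 2 the median log2 fold change turned to 0.25. Over all genes tested it was then 0.04. A single siSRSF1-3 library remained in that fit, so no counts are given from it. Without replicate 3 limma called 72 members (36%), of which 56 were lower, against 23.9% of all genes.

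The siSRSF1-3 replicates differed in how many members held reads. In siSRSF1-3 replicates 1 and 2, 76 and 67 members were listed at 0 reads. In replicate 3 the number was 9, and in the remaining 9 libraries it ran from 3 to 17. Of the members not on few reads, 6 and 4 were at 0 in replicates 1 and 2, and all had reads in the other 10 libraries. The median difference from the blank mean was -1.42 and -1.37 on the log2 scale in replicates 1 and 2 over the 153 members on few reads, and -0.22 and -0.56 over the other 47. Over the 172 members inside a longer gene it was -1.57 and -1.30 in replicates 1 and 2 and 0.24 in replicate 3. Over the 28 members outside it was 0.28, 0.64 and 0.31. The 161 genes that held a member had medians of -0.07, -0.05 and 0.09, and all genes tested had medians of -0.03, -0.01 and 0.04. These medians for the members inside were thus lower in those 2 libraries than in replicate 3, and the difference between inside and outside was not tested. Other measures did not all separate them in this way. The members inside other than RN7SL2 summed to 416 FPKM in replicate 1, above the 363 to 396 FPKM of the blank libraries, and to 239 FPKM in replicate 2. In reads, not scaled to library size, these members had 1104 and 769 in replicates 1 and 2, below the 1371 to 1510 of blank. The library size used for FPKM in replicate 1 was 0.712 of its reads on genes. Of the members outside, 7 (25%) and 4 (14.3%) were at 0 reads in replicates 1 and 2, against 0 to 3 in the other libraries. Both strands took part, with medians of -1.36 and -1.12 on the same strand and -1.77 and -1.57 on the opposite strand. Of the reads on the 198 members other than RN7SL2 and RN7SL3, the 10 members with most reads took 45.6% (95% Wilson interval 43.1% to 48.1%) in replicate 1 and 35.5% (32.6% to 38.5%) in replicate 2. In the other 10 libraries they took 21.9% to 28.4%. Intervals cover counting error only.

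**Figure D4:**
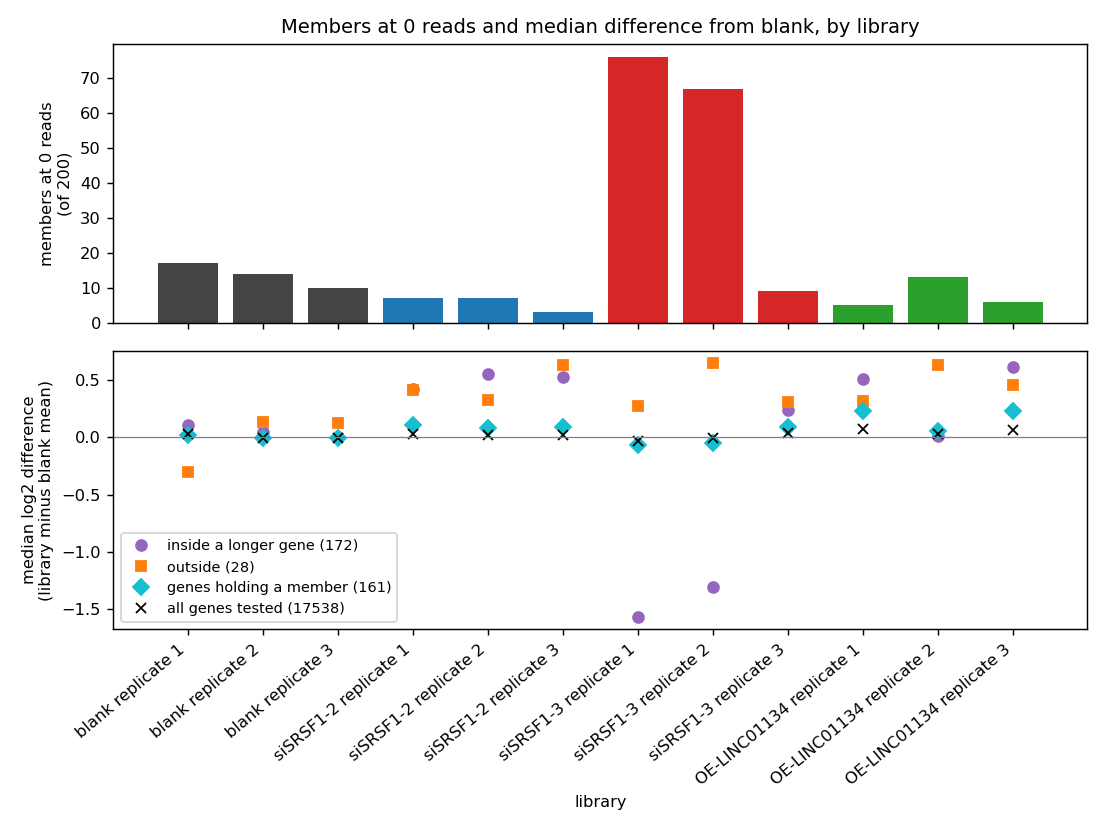
Number of members at 0 reads (top, of 200) and median log2 difference from the blank mean (bottom) in each library, for members inside and outside longer genes, for the genes that hold them and for all genes tested. siSRSF1-3 replicates 1 and 2 have 76 and 67 members at 0 and medians of -1.57 and -1.30 for members inside, while replicate 3 resembles the remaining libraries.

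A few members were highest in those same libraries. RNU6-8, one of the 6 members not listed as pseudogenes, was listed at 22.9, 6.25 and 2.40 FPKM with siSRSF1-3 (48, 17 and 8 reads) and at 3.04, 3.29 and 1.71 FPKM in blank. These groups overlapped, and the log2 fold change of 1.41 ± 0.75 did not pass (limma adjusted p = 0.242). With OE-LINC01134 RNU6-8 was listed at 4.84, 5.47 and 3.92 FPKM, all above blank, which did not pass either (limma adjusted p = 0.120). The other non-pseudogene members RNU5A-1, RNVU1-4 and ENSG00000206832 rested on at most 16 reads in any library. RNU5A-1, a copy of the U5 RNA that aligns the exons for joining, had 8, 6 and 4 reads in blank, 3, 4 and 3 with siSRSF1-2 and 4, 3 and 1 with siSRSF1-3. RNVU1-4, a variant U1 gene, had 1, 1 and 6 reads in blank and 14, 5 and 11 with siSRSF1-2 (limma adjusted p = 0.0704). ENSG00000206832, inside GNAI3, had 3, 4 and 4 reads in blank and 0, 0 and 3 with siSRSF1-3. None of these 4 genes passed the threshold in any of the 4 comparisons.

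The third comparison asked what LINC01134 overexpression changed. Past the threshold were 2 members, 1 higher and 1 lower (1%, against 0.85% of all genes tested, of which 0.257% higher and 0.593% lower), both on few reads, and both are named after their values were seen. RNU6-1101P, a U6 pseudogene outside other genes, had 1, 0 and 0 reads in blank and 8, 7 and 8 with OE-LINC01134 (limma adjusted p = 0.0460). RN7SKP197, a 7SK pseudogene inside TMEM233, had 7, 16 and 12 reads in blank and 0, 0 and 1 with OE-LINC01134 (limma adjusted p = 0.0422). By their summed reads RNU6-1101P was 24.1-fold higher and RN7SKP197 33.4-fold lower with OE-LINC01134. The 95% exact intervals ran from 3.91 to 991 and from 5.62 to 1358, since 1 group of each held a single read. RNU6-1101P had a mean of 0.396 FPKM over the groups other than OE-LINC01134, under the filter on low values and the 200th place, so it was kept and tested only through the group where it is high. The median log2 fold change was 0.30 over the members and 0.05 over all genes tested. Non-overlapping groups were found for 40 members (20%), against 30.6% of all genes. The count became 17 (8.5%, against 5.49% of all genes) without blank replicate 1 and 14 (7%, against 8.78%) without OE-LINC01134 replicate 2, and 0 without any 1 of the other 4 libraries. By library the median difference from the blank mean was 0.49, 0.05 and 0.58, so replicate 2 stood nearer to blank than the other 2.

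The siRNAs were also compared directly. ENSG00000201217, on few reads inside the splicing regulator gene MBNL1, was the 1 member past the threshold (0.5%, against 0.0855% of all genes tested, of which 0.0342% higher and 0.0513% lower) and is named after its values were seen. It had 7, 8 and 8 reads with siSRSF1-2 and 0 in all siSRSF1-3 libraries, at least 6.23-fold lower with siSRSF1-3 (limma adjusted p = 0.0317). In blank it had 9, 2 and 4 reads. At an unadjusted p under 0.05 and the same fold, 55 members were lower (27.5%) and 9 higher (4.5%) with siSRSF1-3, against 7.42% and 9.01% of all genes. The median log2 fold change was -1.45 over the members, -1.64 over the 172 inside and 0.31 over the 28 outside, beside -0.02 over all genes tested. Non-overlapping groups were found for 62 members (31%), against 54.6% of all genes. Without siSRSF1-3 replicates 1 and 2 the median was -0.20 over the members and 0.009 over all genes tested. A single siSRSF1-3 library then remained, so no count is given. Without replicate 3 the count past the threshold was 98 (49%, against 30.6%).

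**Figure D5:**
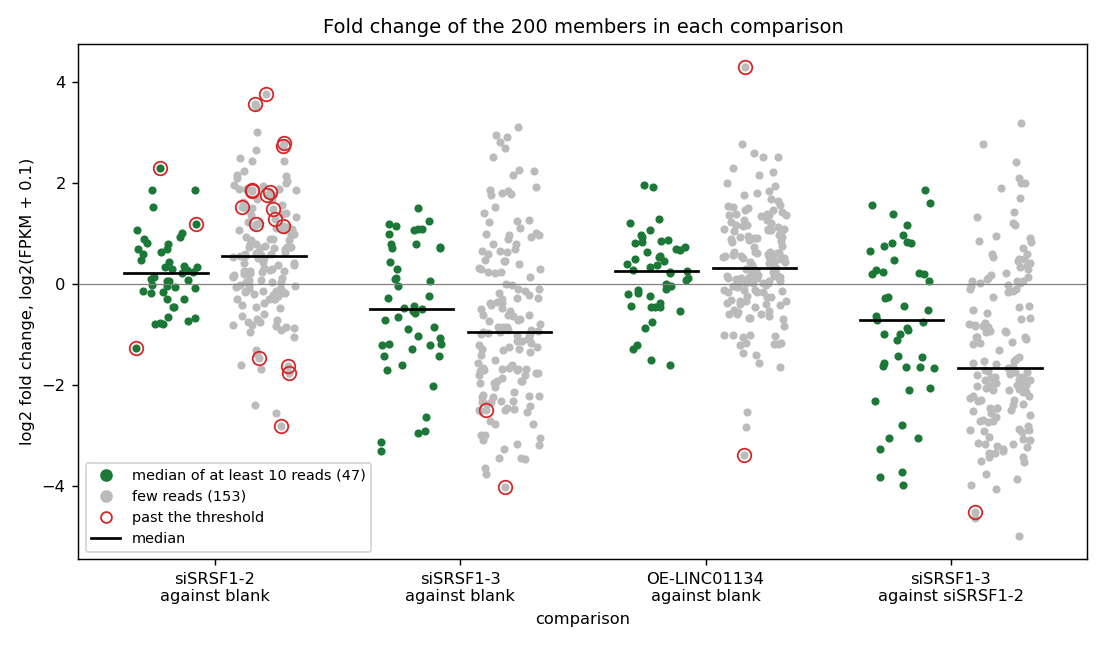
Log2 fold change of each of the 200 members, on the scale of log2(FPKM + 0.1), in the 4 comparisons, split by reads, with a red ring on members past the threshold and a line at the median. Of the rings, 20 are in siSRSF1-2 against blank, and the medians lie below 0 in both comparisons of siSRSF1-3.

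Members inside a longer gene could be set beside that gene for 166 members. Across genes, which are not independent replicates and share libraries, Pearson's r between the log2 fold change of the member and that of the gene holding it was 0.25 for siSRSF1-2, 0.17 for siSRSF1-3 and 0.37 for OE-LINC01134, each against blank. For the 39 of them not on few reads it was 0.23, 0.22 and 0.54. Both moved the same way in 102, 88 and 109 of the 166 pairs. A member and the gene holding it may share reads, and in counts this sparse no more is read from these values.

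Genes for the proteins that make, carry, bind or degrade these RNAs were grouped in 7 lists. Of their 106 entries, 0 genes passed the threshold in siSRSF1-2 or OE-LINC01134 against blank or between the siRNAs, both by limma and by limma voom. Over all genes tested limma called 4.95%, 0.85% and 0.0855% in these comparisons. In siSRSF1-3 against blank 1 of the 106 passed, while 1.26% of all genes tested did. At an unadjusted p under 0.05, 16 were above and 22 below blank with siSRSF1-2, 17 and 9 with siSRSF1-3, and 22 and 8 with OE-LINC01134. Between the siRNAs 39 were above and 17 below with siSRSF1-3. The share of all genes at this unadjusted p, with no minimum fold, was not counted. Nothing about the lists is read from these counts.

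The 1 gene past the threshold was SNAPC1, a subunit of the complex that starts transcription of snRNA genes. SNAPC1 rose from 20.7 ± 0.673 FPKM in blank to 53.6 ± 3.52 FPKM with siSRSF1-3 (SD, n = 3), by 1.37 ± 0.16 on the log2 scale (limma adjusted p = 0.0376). With siSRSF1-2 it was at 36.0 ± 0.302 FPKM, 0.80 ± 0.05 above blank on the log2 scale (limma adjusted p = 0.00105), under the minimum fold. With OE-LINC01134 it was at 68.2 ± 42.4 FPKM and did not pass (limma adjusted p = 0.186). In the same list of 27 genes for snRNA transcription, INTS14, a subunit of the Integrator complex that cuts nascent snRNA, differed by 0.40 ± 0.06 with siSRSF1-2 (limma adjusted p = 0.00628).

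The 18 proteins of the U1 and U2 particles and the Sm ring lay at a median difference from blank of -0.33 on the log2 scale with siSRSF1-2 and of 0.54 with siSRSF1-3, beside 0.02 and -0.01 over all genes tested. SNRPB, an Sm core protein, was at 127 ± 18.5 FPKM in blank and 74.0 ± 0.625 with siSRSF1-2 (SD, n = 3), and SNRPD2, another, differed by -0.42 ± 0.07 on the log2 scale. Their limma adjusted p were 0.00538 and 0.0110, at differences under the minimum fold. For the 23 genes of snRNA export, assembly and end processing the median with siSRSF1-2 was -0.10, with STRAP at -0.42 and GEMIN6 at -0.46, both of the SMN complex (limma adjusted p = 0.0356 and 0.0404). The 7 genes of the 7SK particle and P-TEFb had a median of -0.13, with the cyclins CCNT2 at 0.66 and CCNT1 at 0.28 (limma adjusted p = 0.00361 and 0.0341).

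The 8 genes of the signal recognition particle and its receptor, the protein partners of 7SL RNA, had medians of 0.04, 0.32 and 0.21 with siSRSF1-2, siSRSF1-3 and OE-LINC01134 against blank. SRP14, which binds the Alu end of 7SL, differed by -0.36 ± 0.09 with siSRSF1-2, and the receptor subunit SRPRA by 0.28 ± 0.08 (limma adjusted p = 0.0304 and 0.0468), both under the minimum fold. Among 5 proteins that bind Y RNA or other polymerase III transcripts, MVP, the major vault protein, was at -0.40 and SSB, the La protein, at -0.27 with siSRSF1-2 (limma adjusted p = 0.00421 and 0.0865). The 18 genes of the nuclear exosome and its cofactors, which degrade faulty nuclear RNA, had medians of 0.03, 0.17 and 0.14 in the comparisons with blank. Of them the nuclease DIS3 was at 0.33 and EXOSC5 at -0.25 with siSRSF1-2 (limma adjusted p = 0.0237 and 0.0639).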

How the data were processed

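Per the labels, RNA-Seq was run on 12 U2OS libraries in 4 groups of 3, and the authors deposited FPKM values per gene. The aligner and counter are not given in the sources used here. The labels name mouse and a mouse genome build, whereas the identifiers are human. The sources also differ on the library kit, with poly-T capture in the study's supplement, and on the cell line that received the siRNAs, and the paper's supplement states fewer replicates than there are libraries.

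FPKM multiplied by gene length gave whole reads for every gene, to within 0.000105 of a read, and these reads are used as depth. Tests ran on the 17538 genes whose mean FPKM reached 0.5, on log2(FPKM + 0.1), so fold changes of low genes are understated. limma 3.58.1 (R 4.3.3; lmFit, then eBayes with a trend) was fitted for each pair of groups with Benjamini-Hochberg adjustment. A gene passed the threshold when its adjusted p was below 0.05 and it differed by more than 1 on the log2 scale in either direction. The fit was tested on simulated data. Members with a median under 10 reads per library are called members on few reads. The members, gene lists and tests were chosen with earlier results of these data known.

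Genes named are the 10 highest members, those not listed as pseudogenes, those past the threshold and not on few reads, those at the 200th place, the genes holding them, and from each list the genes past the threshold or the 2 with the smallest p in siSRSF1-2 against blank. Members on few reads that are named besides were chosen after their values were seen. Symbols were read from the full gene names in the table. Values as ± are SD for levels and SE for log2 fold changes. Alternatives covered the pseudocount, filters, scaling, limma voom on the reads, the trend, a joint fit, a replicate block and each library left out. No sequences are printed.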

Additional observations from a re-analysis of the deposited data

Results flagged for a closer look

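The siRNAs are set against each other here for 3 members, all chosen by their values, of which 1 passed the direct test. ENSG00000201217, inside MBNL1, passed the direct test of siSRSF1-3 against siSRSF1-2, at a fitted log2 fold change of -4.51 ± 0.28 (limma adjusted p = 0.0317). Its siSRSF1-2 libraries, at 7, 8 and 8 reads, overlapped blank, at 9, 2 and 4 reads. It had 0 reads in every siSRSF1-3 library, so the fitted value depends on the pseudocount and the bound is at least 6.23-fold lower.

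RNU7-75P, a U7 pseudogene inside the nucleoporin gene NUP155, lay above all blank libraries in every siSRSF1-2 library and below them in every siSRSF1-3 library. It had 3, 8 and 5 reads in blank, 18, 12 and 17 with siSRSF1-2 and 0, 0 and 3 with siSRSF1-3. The fitted log2 fold change between the siRNAs was -4.99 (limma adjusted p = 0.0764), which did not pass, and from 47 and 3 reads the level was 12.7-fold lower (95% exact interval 4.10 to 64.0, counting error only).

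ENSG00000277311, inside LINC01833 on the opposite strand, had the same order, with 6, 19 and 24 reads in blank, 27, 37 and 32 with siSRSF1-2 and 0, 1 and 5 with siSRSF1-3. The log2 fold change between the siRNAs was -4.07 (limma adjusted p = 0.0725), which did not pass. In all 3 members siSRSF1-3 replicates 1 and 2, the libraries with 76 and 67 members at 0 reads, held at most 1 read, and the part of these libraries in the differences was not tested. Groups of 3 libraries are too small for a test of single outlying libraries.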

How the results depend on the processing

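No member past the threshold changed direction under any of the settings run, but the counts of members past it depended on the setting. Shares of the members tested are given against those of all genes tested. For siSRSF1-2 against blank the count was 20 (10% against 4.95%). It became 4 with no filter (2% against 2.01%), 5 with at least 10 reads a library (9.26% against 5.31%) and 2 in one fit over all 4 groups (1% against 1.79%). Of the 20, 13 passed in limma voom, which called 15 members (7.5% against 5.6%). For siSRSF1-3 against blank the count was 2 (1% against 1.26%). It became 4 with a pseudocount of 1 (2% against 1.78%) and 33 in the joint fit (16.5% against 13.8%). It became 1 with no filter (0.5% against 0.272%), with a mean FPKM of at least 1 (0.568% against 1.87%) and when scaled to each library's own total (0.5% against 0.393%). It became 0 with a pseudocount of 0.01, with at least 10 reads a library and in voom (against 0.359%, 2.88% and 3.35%). For OE-LINC01134 against blank the count was 2 (1% against 0.85%). It became 6 in the joint fit (3% against 3.93%) and 1 with a mean FPKM of at least 1 (0.568% against 0.952%). It became 0 with a pseudocount of 0.01, no filter or at least 10 reads (against 0.582%, 0.19% and 1.81%). Between the siRNAs the count was 1. It became 2 with a pseudocount of 1, 51 in the joint fit, 28 without siSRSF1-3 replicates 1 and 2, and 0 with a pseudocount of 0.01, at least 10 reads or voom. Leaving out both replicates was chosen after seeing the data. The cause of these shifts was not tested.

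Leaving out 1 library at a time gave 5 to 41 members for siSRSF1-2, with 41 (20.5% against 6.77% of all genes) without blank replicate 1. The 5 (2.5%) came without siSRSF1-2 replicate 1 or 3, against 3.34% and 3.04%. For siSRSF1-3 it gave 0 to 72, with 72 (36% against 23.9%) without its replicate 3. For OE-LINC01134 it gave 0 to 17, with 17 (8.5% against 5.49%) without blank replicate 1. Between the siRNAs it gave 0 to 98, with 98 (49% against 30.6%) without siSRSF1-3 replicate 3. With a replicate block the counts were 10 (5% against 3.88%), 0, 0 and 0 (against 0%, 0.0228% and 0%). Deviations of same-numbered libraries correlated at -0.0815 to 0.0420, and no label says that a number marks a batch, so the libraries share only a number.

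Between the siRNAs, RN7SL2 and RN7SL3 differed by -0.27 and 0.20 on the log2 scale, neither past the threshold. RN7SL2 ran from -0.45 to 0.036 over the omitted libraries, positive without siSRSF1-3 replicate 2. RN7SL3 was at -0.11 when scaled to each library's own total and ran from -0.040 without siSRSF1-3 replicate 1 to 0.54 without replicate 2. Without members on few reads the summed FPKM in blank, siSRSF1-2, siSRSF1-3 and OE-LINC01134 was 66.7, 72.1, 68.4 and 68.9 for U6 and 88.9, 124, 104 and 113 for undescribed members. For U7 it was 8.26, 9.63, 5.09 and 9.85. The 7SL sums stayed within 1 SD. Depth limits 153 of the 200 members, whose median is under 10 reads.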

Other observations

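The ratio of RN7SL2 to RN7SL3 reads was examined after the values of both 7SL genes had been seen. It was 18.3, 15.8 and 15.4 in the blank libraries, 22.1, 20.4 and 21.8 with siSRSF1-2, 14.2, 16.2 and 16 with siSRSF1-3 and 25.3, 25.6 and 26.9 with OE-LINC01134. The siSRSF1-2 and OE-LINC01134 libraries lay above all blank libraries, and the siSRSF1-3 libraries overlapped blank. The group means were 16.5 ± 1.60, 21.4 ± 0.944, 15.5 ± 1.09 and 26.0 ± 0.826 (SD, n = 3). An exact two-sided permutation test over libraries gave p = 0.1 for siSRSF1-2 and for OE-LINC01134 against blank, the smallest value that 3 against 3 libraries allow, and p = 0.6 for siSRSF1-3. Library size cancels in this ratio, and reads may be divided between these near-identical copies.

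Another class of genes that lies within introns was set beside the members. The 257 sense_intronic genes tested had median differences from the blank mean of 0.31, 0.06 and 0.08 on the log2 scale in siSRSF1-3 replicates 1, 2 and 3, while the 172 members inside a longer gene had -1.57, -1.30 and 0.24. Of the sense_intronic genes 14, 13 and 0 were at 0 reads in these libraries, and 0 to 3 in all others. Zeros thus peaked in replicates 1 and 2 in that class too. Of the members inside, 69, 63 and 7 were at 0 reads. In blank 0 or 1 of the sense_intronic genes and 9 to 15 of these members were at 0, so the members were sparser. Over the 47 members not on few reads the medians were -0.22, -0.56 and 0.10. The difference between these classes was not tested.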
